A study of Mus musculus with 8 samples.

Results

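Genes of the complement pathways and the coagulation cascade were followed in mouse liver after an adenovirus carrying Cux2. The set holds 34 genes chosen by their place in the pathways: 11 of complement, 4 of the contact system, 5 clotting factors, 4 of fibrinogen and fibrin cross-linking, 4 anticoagulants and 6 of fibrinolysis. The genes of terminal complement were left out. All 34 had a probe on the array and passed the filter on dim probes, so they are 34 of the 22225 genes measured, and 33 of them were well above background in both channels of all 8 arrays. The other, Plau, was dim.

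Liver RNA came from ICR scid mice aged 8 wk, a strain whose scid mutation leaves it without mature B and T cells, on 8 two-colour arrays. Each array set 1 pool of livers against another and gave a log2 ratio. A comparison had 2 such arrays, made from different pools and with the dyes reversed, and there were 4 comparisons. Untreated males were set against untreated females (10 mice each, 5 a pool). Pools labelled Adeno-Cux2 were set against pools labelled Adeno-CMV, the control virus, in males at day 5 (12 and 13 mice), in females at day 5 (8 and 7 mice) and in males at day 3 (11 and 11 mice). The 16 pools of 3 to 7 mice entered 1 array each, and every treated mouse had received an adenovirus, so no ratio sets an infected liver against an uninfected one. The comparisons ask how the untreated sexes differ and how Cux2, a homeobox factor of the liver, changes expression in each sex. Errors are standard errors of a comparison with n = 2 arrays, from 1 model of all 8 arrays. The model has a dye term for the gap that the 2 dye orientations show in common over the comparisons. The errors cover the spread left after that term, so the 2 arrays of a gene can lie much farther apart than its error. A gene passed the test at an adjusted p under 0.05.

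Complement is a chain of plasma proteases that marks and attacks microbes. Lectins such as Mbl1 and Mbl2 or antibodies start it, proteases such as Masp1, Masp2 and C2 carry it forward, and all routes meet at C3. Coagulation is a second chain of plasma proteases: the contact system and the factors upstream activate thrombin, thrombin turns fibrinogen into fibrin, anticoagulants hold the chain back, and plasmin dissolves the clot. The hepatocyte secretes most of these proteins, many of them among its most abundant transcripts, and in the acute-phase response of the liver some rise while others fall. Tissue plasminogen activator (Plat) and urokinase (Plau) are exceptions, being made mainly by other cells.

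Promoters of 5 members are shown because their genes behaved differently in these data: F11 and Klkb1, which lie next to each other, Masp2 and F9, which were lower at day 3, and Fgb, which was not. Each sequence is the 250 bases before the gene start on GRCm38.p6, from RefSeq, written 5′ to 3′ on the strand of the gene. F11 is from chr8:45262032-45262281 (minus strand), Klkb1 from chr8:45294836-45295085 (minus strand), Masp2 from chr4:148602294-148602543 (plus strand), F9 from chrX:59999214-59999463 (plus strand) and Fgb from chr3:83049864-83050113 (minus strand). Capitals mark matches, on either strand, to TTCNNNGAA, the form bound by STAT factors, and to TTGCNNAA, a loose form of the C/EBP site.

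F11: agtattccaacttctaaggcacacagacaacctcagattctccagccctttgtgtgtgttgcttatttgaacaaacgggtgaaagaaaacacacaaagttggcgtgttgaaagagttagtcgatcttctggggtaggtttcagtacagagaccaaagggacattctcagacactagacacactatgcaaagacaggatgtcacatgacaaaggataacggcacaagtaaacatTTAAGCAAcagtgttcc
Klkb1: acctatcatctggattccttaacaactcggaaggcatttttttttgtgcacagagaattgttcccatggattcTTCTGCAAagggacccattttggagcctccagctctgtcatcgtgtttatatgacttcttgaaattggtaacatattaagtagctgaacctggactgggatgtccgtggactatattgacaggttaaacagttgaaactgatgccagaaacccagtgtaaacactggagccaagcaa
Masp2: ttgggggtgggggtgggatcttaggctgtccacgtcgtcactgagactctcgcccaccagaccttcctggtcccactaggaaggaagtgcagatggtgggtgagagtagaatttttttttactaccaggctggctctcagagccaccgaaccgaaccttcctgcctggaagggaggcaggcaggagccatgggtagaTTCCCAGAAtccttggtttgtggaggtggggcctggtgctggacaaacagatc
F9: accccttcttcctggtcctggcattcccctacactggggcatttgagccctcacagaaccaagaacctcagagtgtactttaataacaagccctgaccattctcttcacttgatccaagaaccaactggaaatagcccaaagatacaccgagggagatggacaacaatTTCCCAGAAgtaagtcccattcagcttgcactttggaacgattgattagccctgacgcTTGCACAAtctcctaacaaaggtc
Fgb: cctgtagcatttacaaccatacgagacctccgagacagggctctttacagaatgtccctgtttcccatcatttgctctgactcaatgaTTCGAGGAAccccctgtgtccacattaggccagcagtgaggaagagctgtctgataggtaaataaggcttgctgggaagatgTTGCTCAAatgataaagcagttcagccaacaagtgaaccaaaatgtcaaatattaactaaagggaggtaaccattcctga

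Of the 34 members, 23 had an entry in the promoter table. Over the whole windows, which run from 250 bases before to 50 after the start, TTCNNNGAA was found for 6 of the 23 (F9, Fga, Fgb, Masp2, Pros1 and Vtn), against 8.3% of the 32851 promoters in the table. TTGCNNAA was found for 8 (C3, Cpb2, F11, F9, Fga, Fgb, Klkb1 and Serpinc1), against 10.8%. No window of a member held ATCGAT, a form bound by Cux factors (0.925% of all promoters), TTGCGCAA, the full C/EBP palindrome (0.183%), or the HNF1 palindrome (0.00913%). In the sequences above, the match to TTCNNNGAA begins 53 bases before the start of Masp2, 82 before F9 and 162 before Fgb, and the match to TTGCNNAA begins 17 bases before F11, 24 before F9, 80 before Fgb and 177 before Klkb1. Genes that were lower at day 3 and genes that were not are found on both sides of each match: Masp2 and Fgb share the first, and F11 and Klkb1 the second. A match says only that these letters are present.

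The median spot brightness of an array lay between 343 and 442 for the green channel and between 430 and 512 for the red. The targeted gene, Cux2, was measured by the brighter of its 2 probes. It stood at −1.74 and −2.02 on the untreated arrays, 0.61 and 0.60 on the male arrays of day 5, −0.58 and −0.65 on the female ones, and 0.39 and 0.58 on those of day 3. In females it was thus lower in the pools labelled Adeno-Cux2, which goes against the label, and the dimmer probe gave −0.28 and −0.38 there. Whether either probe reads the virus-borne copy is not stated in the sources used here, so they need not check the labels, and female day 5 ratios below are those of the arrays as labelled. Of 15 hepatocyte-defining genes 13 passed the filter on dim probes. Their median ratio was −0.12 between the untreated sexes, −0.27 at day 3, and at day 5 0.23 for males and 0.37 for females. On the single arrays it was 0.27 and −0.83 in untreated mice and −0.18 and −0.39 at day 3. At day 5 it was 0.41 and −0.02 in males and 0.47 and −0.02 in females, so outside day 3 the arrays had opposite signs.

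The cascade was lower in males at day 3 and lay closer to the control virus at day 5. At day 3, 22 members passed the test, against 44% of all genes. Of these 19 fell and 3 rose, against 20.3% of all genes lower and 23.7% higher, and the 19 are 55.9% of the members. At day 5 the same 19 lay between −0.53 and 0.45 in males (median −0.04) and between −0.49 and 0.44 in females (median −0.08). These 19 were picked by their day 3 values, so day 5 values nearer the control virus follow in part from that choice. The male arrays of the 2 days also lay on different slides. At day 5, 6 members rose and 2 fell in males, against 13.9% of all genes higher and 4.95% lower, and 6 rose and 4 fell in females, against 12.8% and 6.3%. Between the untreated sexes, 2 members were higher in males and 6 lower, against 4.92% and 6.13%. Without the dye term the balance turned in males at day 5, where 2 members were higher and 3 lower, and in untreated mice, where 2 were higher and 1 lower. In females 3 were higher and 3 lower, and 1 was higher and 17 lower at day 3. Without that term the shares of all genes higher and lower were 12.7% and 4.17% in males at day 5 and 4.05% and 4.98% in untreated mice. They were 11.3% and 5.38% in females and 22% and 18.3% at day 3. The member medians were −0.46 at day 3, 0.06 and 0.00 in males and females at day 5, and −0.08 in untreated mice, and the medians of all genes were 0.00, 0.01, 0.00 and −0.01. Most members are bright, and of the 1401 genes with a mean log2 signal over 14 a larger share was lower at day 3 than of all genes, 41.7%. With arrays centred on the median in place of the loess curve, 12.6% of all genes were lower at day 3 and 27.4% higher, and 18 members were lower and 2 higher. In these bulk samples, fewer hepatocytes and less RNA per hepatocyte cannot be told apart.

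**Figure D1:**
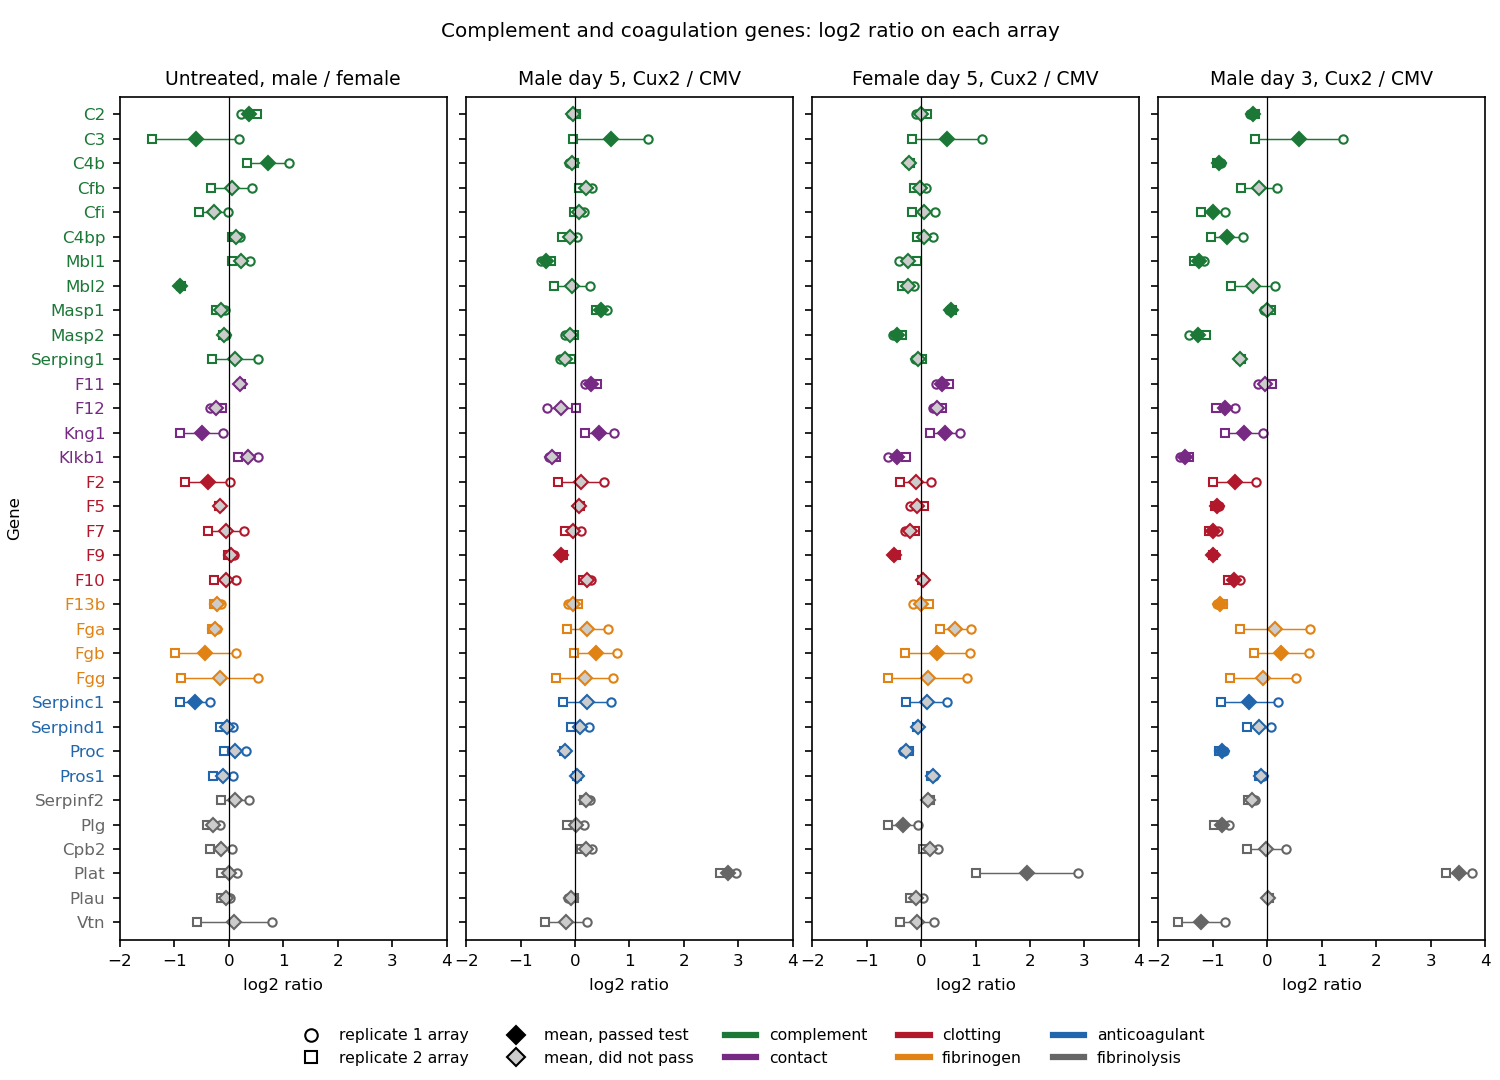
Log2 ratio (x axis) of each of the 34 genes (y axis, coloured by role) in the 4 comparisons, with an open circle for the replicate 1 array, an open square for the replicate 2 array and a diamond for their mean, filled in colour where it passed the test. In the panel for males at day 3, 19 filled diamonds lie below 0 and 3 above it, and Plat stands apart at 3.53.

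The counts rest on few arrays. In each case of an array left out in this paragraph the share of all genes that passed fell too. The losses are therefore not read as particular to the members. Leaving out 1 array of a comparison, with the other assumed to vary like the rest, left 19 members past the test at day 3 without replicate 1 and 17 without replicate 2. In males at day 5 it left 2 without replicate 1 and 1 without replicate 2, and in females 3 and 2. Of the 8 in untreated mice, 1 was left without replicate 1 and 5 without either of the male day 5 arrays, which share the estimate of the spread. Of the calls at day 3, 14 held in every alternative tried: those of Cfi, C4bp, Mbl1, Masp2, F5, F7, F9, F10, F13b, Proc, Plg, Klkb1, Vtn and Plat. At day 5 Plat alone did so in each sex, and in untreated mice none did.

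A second limit concerns the brightest probes. Their ratios tended to be higher on the replicate 1 array, and the dye term of the model takes up the mean of that gap over the comparisons, not its variation between them. Over the 88 genes with a mean log2 signal over 17 the median gap, replicate 1 minus replicate 2, was 0.79, and it was 0.26 from 16 to 17 and −0.03 from 14 to 16. Among members the mean gap was 1.47 for C3, 1.28 for Fgg, 1.03 for Fgb, 0.90 for Vtn, 0.81 for Serpinc1, 0.76 for F2, 0.68 for Fga and 0.64 for Kng1. The gap was not the same in each comparison: for Fga it was 0.10 in untreated mice and 1.30 at day 3, for Mbl2 −0.02 and 0.80, and for Vtn 1.38 and 0.86, while for C3 it stayed between 1.28 and 1.62. For the genes with a large gap the arrays of a comparison can have opposite signs while the mean passes the test.

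**Figure D2:**
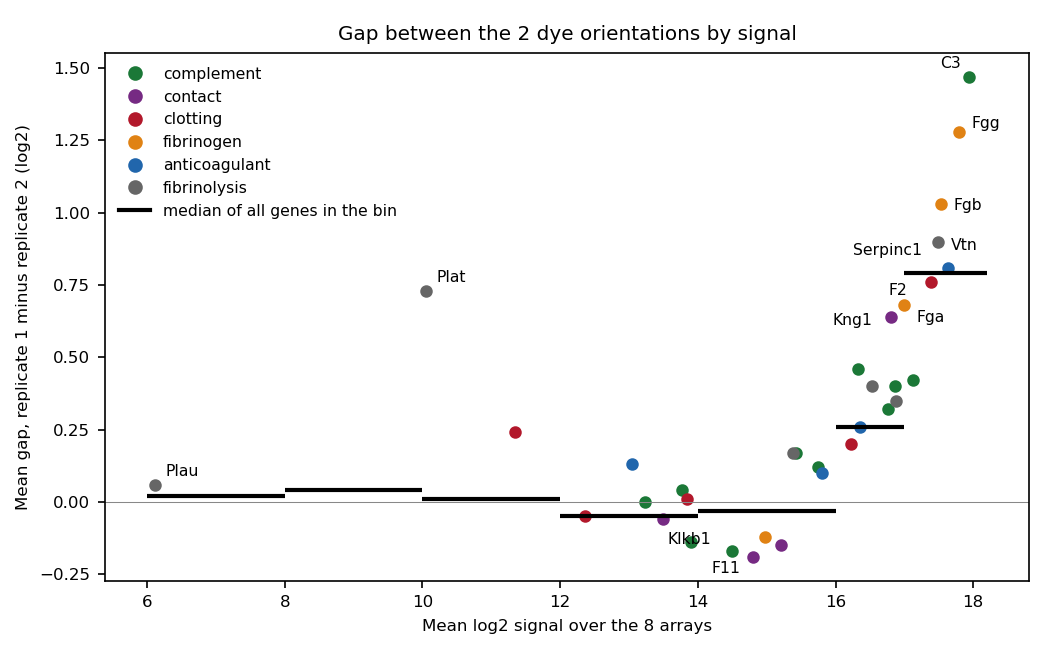
Gap in log2 ratio between the replicate 1 and replicate 2 arrays, averaged over the 4 comparisons (y axis) against mean log2 signal (x axis), with a point for each of the 34 genes and black lines for the median of all genes in a signal bin. The gap lies near 0 below a signal of 16 for all but Plat, at 0.73, and F7, at 0.24, and reaches 1.47 for C3.

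In complement, 6 of 11 members fell at day 3 in males and C3 rose. Of the 4 members of the lectin route, Masp2 and Mbl1 fell, each on both arrays. Masp2, the protease that cleaves C4 and C2, stood at −1.43 and −1.13, with a mean of −1.28 ± 0.08 (2.43-fold lower, adjusted p = 4.99e-05). Mbl1, a mannose-binding lectin, stood at −1.17 and −1.34, with a mean of −1.26 ± 0.12 (2.39-fold lower, adjusted p = 0.000252). For both genes the arrays lay close together and far below 0. The other lectin, Mbl2, gave 0.14 and −0.66 and did not pass (−0.26 ± 0.14, adjusted p = 0.181).

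Both inhibitors that inactivate C4b and C3b fell at day 3. Cfi, the protease factor I, stood at −0.77 and −1.22 (−0.99 ± 0.08, adjusted p = 0.000137). C4bp, its cofactor for C4b, stood at −0.45 and −1.03 (−0.74 ± 0.08, adjusted p = 0.000585), while a dimmer C4bp probe was at 0.01 and −0.02, so its 2 probes disagree. C4b itself, the common substrate of the classical and lectin routes, stood at −0.85 and −0.93 (−0.89 ± 0.15, adjusted p = 0.00289). That call was lost without replicate 1 of day 3 (−0.82, adjusted p = 0.0535). The C4b probe may also read the near-identical C4a. C2, the protease partner of C4b, changed least of the 6, at −0.31 and −0.23 (−0.27 ± 0.07, adjusted p = 0.016), and did not pass without either array of day 3 (−0.33, adjusted p = 0.0778 without replicate 1, and −0.22, adjusted p = 0.215 without replicate 2). Its neighbour on chromosome 17, Cfb of the alternative route, gave 0.18 and −0.48 and passed in no comparison, and neither did Serping1, the C1 inhibitor (−0.52 and −0.48 at day 3, adjusted p = 0.0555).

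At day 5 few of these genes remained apart from the control virus. Mbl1 was still lower in males, at −0.62 and −0.45 (−0.53 ± 0.12, adjusted p = 0.022), and in females it stood at −0.40 and −0.08 (−0.24 ± 0.12, adjusted p = 0.227). Masp2 was lower in females, at −0.51 and −0.36 (−0.44 ± 0.08, adjusted p = 0.00964), and in males it stood at −0.19 and −0.01 (−0.10 ± 0.08, adjusted p = 0.444). The female value without replicate 1 was −0.43 (adjusted p = 0.125) and without replicate 2 −0.44 (adjusted p = 0.095). Without replicate 1 the male value of Mbl1 was −0.42 (adjusted p = 0.356), and without replicate 2 −0.65 (adjusted p = 0.152). Neither gene passed the test of the difference between the sexes, whose arrays lay on different slides. The difference was 0.30 for Mbl1 (95% interval −0.10 to 0.69) and −0.34 for Masp2 (−0.60 to −0.08, adjusted p = 0.303). The dimmer Masp2 probes showed no such gap, with means of −0.27 and −0.23 in males and −0.23 and −0.23 in females.

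Masp1, the protease that activates Masp2, rose at day 5 in both sexes and did not pass at day 3. It stood at 0.58 and 0.38 in males (0.48 ± 0.08, adjusted p = 0.00702), 0.51 and 0.57 in females (0.54 ± 0.08, adjusted p = 0.00502), and −0.06 and 0.06 at day 3. Its 4 probes disagree. The second in brightness gave 0.82 and 1.15 in day 5 males, 1.33 and 1.85 in females and −0.90 and −1.30 at day 3, the next in brightness went the same way with −0.11 and −0.50 at day 3, and the dimmest stayed between −0.16 and 0.28. The gene encodes several products by alternative splicing, and which of them each probe reads was not tested. All 3 Masp2 probes, by contrast, lay between −0.88 and −1.43 on the day 3 arrays. The Masp1 call rested on both arrays: in males it was lost without replicate 1 (0.38, adjusted p = 0.198) or replicate 2 (0.58, adjusted p = 0.0716), and in females without replicate 2 (0.47, adjusted p = 0.0773).

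C3, the protein on which all complement routes converge, had the largest gap between dye orientations. It stood at 1.35 and −0.03 in day 5 males, 1.11 and −0.17 in females, 1.40 and −0.22 at day 3, and 0.19 and −1.41 in untreated mice. Replicate 1 was high and replicate 2 near or below 0 throughout. The means passed the test, at 0.66 ± 0.08, 0.47 ± 0.08, 0.59 ± 0.08 and −0.61 ± 0.08 (adjusted p = 0.00205, 0.00934, 0.00134 and 0.00651 in limma), but not without the dye term (0.5, 0.657, 0.43 and 0.539), and the probe had 2 saturated spots. A dimmer C3 probe, without saturation, gave the same direction on both arrays of each comparison: 0.55 and 0.36, 0.47 and 0.11, 0.51 and 0.41, and −0.32 and −0.66. Without replicate 2 of its own comparison the day 5 calls were lost in males (0.60, adjusted p = 0.0827) and females (0.34, adjusted p = 0.147), and without replicate 1 the untreated call was lost (−0.70, adjusted p = 0.0513).

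**Figure D3:**
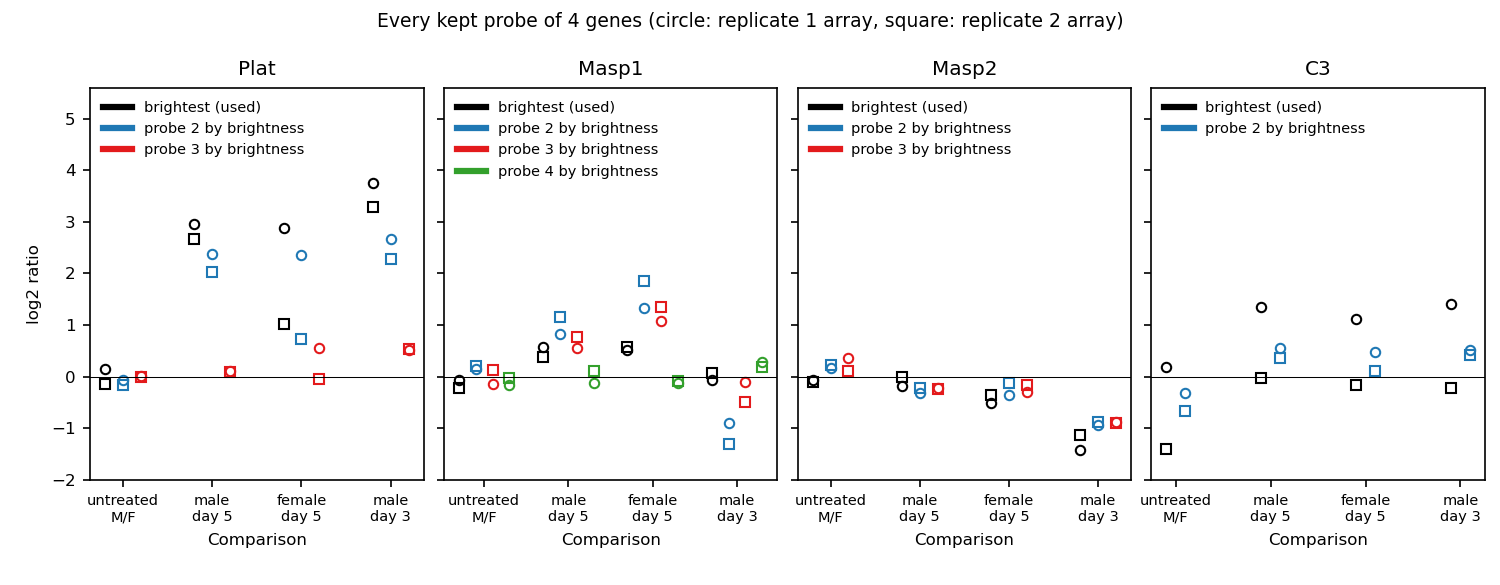
Log2 ratios (y axis) of every probe kept for Plat, Masp1, Masp2 and C3 in the 4 comparisons (x axis), with a circle for the replicate 1 array, a square for the replicate 2 array and a colour for each probe. The Masp2 probes lie together, the 2 brighter Plat probes lie apart from the dimmest, and at day 3 the Masp1 probes range from −1.30 to 0.28.

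Untreated males and females differed in 4 complement genes. Mbl2 was lower in males, at −0.90 and −0.88 (−0.89 ± 0.14, adjusted p = 0.0121), C4b was higher, at 1.1 and 0.34 (0.72 ± 0.15, adjusted p = 0.0276), and so was C2, at 0.23 and 0.51 (0.37 ± 0.07, adjusted p = 0.0189). The C3 value is given above. The 2 Mbl2 arrays agree closely and lie below all other complement values of that comparison except that of C3 on replicate 2. Without replicate 1 of the untreated arrays Mbl2 stood at −0.60 (adjusted p = 0.165) and C4b at 0.33 (adjusted p = 0.17), and C2 did not pass without replicate 1 (0.45, adjusted p = 0.0836) or replicate 2 (0.30, adjusted p = 0.0747). Without either male day 5 array C2 (adjusted p = 0.0566) and C4b (adjusted p = 0.0588) did not pass.

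In the contact system, Klkb1, F12 and Kng1 fell at day 3 and F11 did not pass. Klkb1 encodes plasma prekallikrein, which activates factor XII and frees bradykinin from kininogen. It stood at −1.61 and −1.44 at day 3, the lowest mean of any member at −1.52 ± 0.12 (2.88-fold lower, adjusted p = 0.00012). F11, the factor XI gene and the close homologue of Klkb1, stood at −0.17 and 0.08 (−0.05 ± 0.07, adjusted p = 0.615). The genes are neighbours on chromosome 8, their probes at chr8:46771146-46771205 and chr8:46740216-46740275 on mm8, and their promoters are those printed above.

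F11 also exceeded Klkb1 at day 5. F11 rose in males (0.19 and 0.41, mean 0.30 ± 0.07, adjusted p = 0.0249) and in females (0.27 and 0.51, mean 0.39 ± 0.07, adjusted p = 0.00974). Klkb1 fell in females (−0.61 and −0.28, mean −0.44 ± 0.12, adjusted p = 0.0435) and stood at −0.48 and −0.35 in males (−0.42 ± 0.12, adjusted p = 0.0538). The ratio of F11 minus that of Klkb1 on the same array was 1.44 and 1.52 at day 3, 0.67 and 0.76 in day 5 males, 0.88 and 0.79 in females, and −0.35 and 0.06 in untreated mice. It was above 0 on all 6 arrays of treated mice, with no test of this gap made. The day 5 calls were lost without either array of their own comparison: F11 gave 0.33 and 0.28 in males (adjusted p = 0.244 and 0.338) and 0.43 and 0.35 in females (adjusted p = 0.0954 and 0.128), and Klkb1 gave −0.27 and −0.62 in females (adjusted p = 0.48 and 0.0772). Klkb1 also missed the test in females without any 1 array of the male comparisons (adjusted p = 0.0913 without either of day 5 and 0.0673 without either of day 3).

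**Figure D4:**
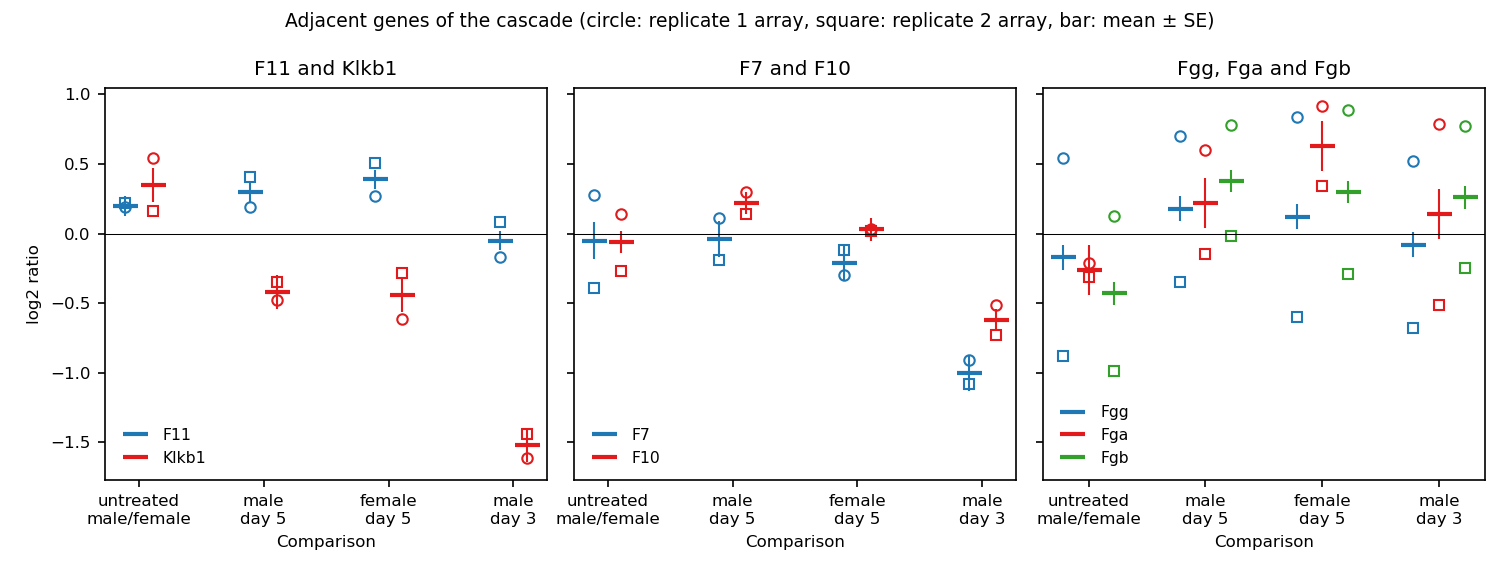
Log2 ratios (y axis) of members that lie next to each other in the genome, in the 4 comparisons (x axis), with a circle for the replicate 1 array, a square for the replicate 2 array, a thick bar for the mean and a line for its standard error. F11 lies above Klkb1 on all arrays of treated mice, and F7 and F10 are both lower at day 3. Fgg and Fgb differ more between the arrays of a comparison than their means do between comparisons.

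F12, the factor XII gene, stood at −0.60 and −0.94 at day 3 (−0.77 ± 0.13, adjusted p = 0.00388), and without replicate 2 at −0.44 (adjusted p = 0.0597). Kng1, the kininogen gene, crossed from lower to higher between the days. It stood at −0.07 and −0.77 at day 3 (−0.42 ± 0.07, adjusted p = 0.00311), 0.71 and 0.18 in day 5 males (0.45 ± 0.07, adjusted p = 0.00579) and 0.72 and 0.16 in females (0.44 ± 0.07, adjusted p = 0.00693). Replicate 1 was above replicate 2 each time, in step with the dye gap, and without the dye term the adjusted p was 0.209, 0.287 and 0.289. A second Kng1 probe gave −0.33 and −0.44 at day 3, 0.41 and 0.29 in day 5 males and 0.42 and 0.29 in females, so both arrays had 1 sign there. In untreated mice Kng1 was lower in males, at −0.11 and −0.89 (−0.50 ± 0.07, adjusted p = 0.00814), but did not pass without the dye term (adjusted p = 0.252). The second probe gave 0.01 and −0.50 there, with a mean of −0.24. Its probes may also read Kng2, a near-identical copy. Of the Kng1 calls in treated mice, that at day 3 was lost without replicate 2 (−0.38, adjusted p = 0.0659) and those at day 5 without either own array (0.52 and 0.37 in males, adjusted p = 0.0755 and 0.179; 0.50 and 0.39 in females, adjusted p = 0.067 and 0.103).

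All 5 clotting factors fell at day 3, and each was negative on both arrays. F9, the factor IX gene, stood at −1.0 on each (−1.0 ± 0.06, adjusted p = 6.35e-05). F7, the factor VII gene that starts the tissue factor route, stood at −0.91 and −1.08 (−1.0 ± 0.13, adjusted p = 0.00117). F5, the cofactor of the complex that makes thrombin, stood at −0.89 and −0.96 (−0.93 ± 0.08, adjusted p = 0.000157). These 3 were close to a 2-fold fall.

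F10, the protease of that complex and the neighbour of F7 on chromosome 8, fell less, at −0.51 and −0.73 (−0.62 ± 0.08, adjusted p = 0.00107). F2, the prothrombin gene, stood at −0.20 and −1.0 (−0.60 ± 0.07, adjusted p = 0.000804), with the gap of a bright probe, and did not pass without the dye term (adjusted p = 0.131). F7 and F10 thus fell together, with F7 below F10 by 0.40 and 0.35 on the 2 arrays.

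At day 5 only F9 among the clotting factors passed, and it did so in both sexes. It stood at −0.28 and −0.22 in males (−0.25 ± 0.06, adjusted p = 0.0389) and −0.51 and −0.47 in females (−0.49 ± 0.06, adjusted p = 0.00336). The female value was lower by 0.24, which did not pass (95% interval −0.46 to −0.02, adjusted p = 0.408). The male call is at the edge: it was lost in 11 of 18 alternatives, the highest adjusted p being 0.445 without its replicate 1, and 0.276 without its replicate 2, 0.0633 without either female array and 0.07 without either day 3 array. The female value without replicate 1 was −0.46 (adjusted p = 0.0696). In untreated mice F2 was lower in males, at 0.03 and −0.80 (−0.38 ± 0.07, adjusted p = 0.0233), which did not pass without replicate 1 (−0.43, adjusted p = 0.138), replicate 2 (−0.33, adjusted p = 0.0892) or either male day 5 array (adjusted p = 0.0644).

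No fibrinogen chain passed the test as lower at day 3, and for each chain replicate 1 was above 0 and replicate 2 below it. F13b, the carrier subunit of the factor XIII that cross-links fibrin, fell, at −0.93 and −0.81 (−0.87 ± 0.08, adjusted p = 0.000282). Fgb, the beta chain, stood at 0.77 and −0.25 at day 3 (0.26 ± 0.08, adjusted p = 0.0396), 0.78 and −0.02 in day 5 males (0.38 ± 0.08, adjusted p = 0.0194), 0.89 and −0.29 in females (0.30 ± 0.08, adjusted p = 0.0466) and 0.13 and −0.99 in untreated mice (−0.43 ± 0.08, adjusted p = 0.0221). Replicate 1 was positive and replicate 2 negative in all 4, so these means depend on the dye term, without which the adjusted p was 0.639, 0.599, 0.699 and 0.543. They were also lost without either own array (adjusted p from 0.0647 to 0.484 in treated mice and 0.14 and 0.0909 in untreated mice), and the female value also without either male day 5 array (adjusted p = 0.056) or either day 3 array (adjusted p = 0.0776).

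Fga, the alpha chain, and Fgg, the gamma chain, passed in no comparison. Fga stood at 0.92 and 0.34 in females at day 5 (0.63 ± 0.18, adjusted p = 0.051), 0.60 and −0.15 in males and 0.79 and −0.51 at day 3. Fgg stood at 0.52 and −0.68 at day 3 and ranged from a mean of −0.17 to 0.18 over the comparisons. The 3 chains, which are adjacent on chromosome 3, form 1 protein. Their means at day 3 lay between −0.08 and 0.26 while the 5 clotting factors lay between −1.0 and −0.60. Since the arrays of each chain had opposite signs there, the direction of the chains is not settled.

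Among the anticoagulants, Proc fell at day 3 and Pros1, its cofactor protein S, did not pass. Proc, the protein C gene, stood at −0.80 and −0.88 (−0.84 ± 0.09, adjusted p = 0.000543), and Pros1 at −0.08 and −0.16 (−0.12 ± 0.08, adjusted p = 0.274). Serpinc1, antithrombin, stood at 0.20 and −0.85 at day 3 (−0.33 ± 0.09, adjusted p = 0.0288), where replicate 1 was positive, and at −0.35 and −0.89 in untreated mice (−0.62 ± 0.09, adjusted p = 0.0103). A second Serpinc1 probe gave 0.25 and −0.39 in untreated mice, with a mean of −0.07, so its probes disagree there, and −0.25 and −0.42 at day 3. The day 3 value did not pass without the dye term (adjusted p = 0.443), without replicate 2 (−0.16, adjusted p = 0.422) or without either male day 5 array (adjusted p = 0.0585), and the untreated value did not pass without the dye term (adjusted p = 0.255) or without replicate 1 (−0.44, adjusted p = 0.135). Serpind1, heparin cofactor II, passed in no comparison and stayed between −0.15 and 0.09. At day 5 none of the 4 passed in either sex, with an unadjusted p under 0.05 for 0 of them in males and 2 in females.

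In fibrinolysis, the activator rose and its substrate fell in males at day 3. Plat, tissue plasminogen activator, had the largest change of any member. It stood at 3.76 and 3.29 at day 3, 2.96 and 2.67 in day 5 males, 2.89 and 1.01 in females at day 5, and 0.15 and −0.14 in untreated mice. All 6 arrays of treated mice had positive ratios, and replicate 2 of the females was the lowest of the 6. The means were 3.53 ± 0.27 at day 3 (11.5-fold higher, adjusted p = 0.000112), 2.81 ± 0.27 in day 5 males (7.03-fold, adjusted p = 0.000721) and 1.95 ± 0.27 in females (3.86-fold, adjusted p = 0.00398). The size depends on the probe: with the mean of all 3 kept probes the values were 2.17 at day 3, 1.70 in day 5 males and 1.25 in females. The female value was 1.18 without replicate 1 and 2.72 without replicate 2. The female response was lower than the male one by 0.87, which did not pass (95% interval −1.77 to 0.04, adjusted p = 0.493).

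A second Plat probe repeated the order, with 2.67 and 2.28 at day 3, 2.37 and 2.02 in day 5 males and 2.36 and 0.72 in females. The dimmest stayed between −0.04 and 0.56 on the arrays of treated mice. Markers of other cells also changed on the arrays of treated mice. Of 18 macrophage markers, 13 rose and 4 fell at day 3 (median 0.79), the 4 being Clec4f, Marco, Cd163 and Timd4, while 17 rose in day 5 males (median 1.39) and 14 in females (0.86), with 0 lower. Of 11 stellate cell markers, 7 rose and 1 fell at day 3 (0.86), and 9 rose in each sex at day 5 (0.65 and 0.75). Of 12 endothelial markers, 2 rose and 2 fell at day 3 (0.03), which is below the 23.7% of all genes that were higher, and 5 and 7 rose at day 5 (0.22 and 0.26). At day 5 the shares of all genes higher were 13.9% and 12.8%. The part of these cells in the Plat values was not tested. RNA of exocrine pancreas differed between arrays. The median of 10 of its markers was 4.29 and −0.77 on the female arrays, with Plat at 2.89 and 1.01. At day 3 it was 0.06 and 2.94, with Plat at 3.76 and 3.29. In males at day 5 it was 0.02 and 0.06, with Plat at 2.96 and 2.67, and in untreated mice −0.13 and 3.51. Of the 34 members, 11 and 28 lay below 0 on the untreated arrays and 11 and 21 in day 5 males. In females it was 14 and 20, and at day 3 23 and 30. The part of pancreas RNA in these values was not tested.

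Plg, the plasminogen gene, fell at day 3, at −0.70 and −0.98 (−0.84 ± 0.08, adjusted p = 0.000224). In males at day 5 it stood at 0.17 and −0.15 and did not pass (0.01 ± 0.08, adjusted p = 0.944 in limma). In females at day 5 it stood at −0.05 and −0.61 (−0.33 ± 0.08, adjusted p = 0.0269), which was lost without replicate 1 (−0.47, adjusted p = 0.0573), replicate 2 (−0.19, adjusted p = 0.362) or either male day 5 array (adjusted p = 0.0679). Vtn, vitronectin, an adhesive plasma protein, stood at −0.78 and −1.64 at day 3 (−1.21 ± 0.12, adjusted p = 0.000385), and its arrays at day 5 had opposite signs in each sex (0.22 and −0.55 in males, 0.24 and −0.38 in females). The inhibitors of plasmin and of fibrin breakdown did not pass in any comparison: Serpinf2, alpha-2-antiplasmin, stayed between −0.29 and 0.21 and Cpb2, which trims fibrin, between −0.15 and 0.21. A second Cpb2 probe gave −0.92 and −0.09 in untreated mice, with a mean of −0.5, so the Cpb2 probes disagree there. Plau, urokinase, stayed between −0.09 and 0.02, at a signal near background.

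Male responses at day 5 and day 3 were then compared directly. Of 34 members 18 differed, all of them higher at day 5, against 8.1% of all genes higher and 4.82% lower. Among the 1401 bright genes 25.1% were higher and 2.78% lower, and the member median of the difference was 0.53. The differences were largest for Masp2 (1.18 ± 0.11, adjusted p = 0.00324), Klkb1 (1.11 ± 0.17, adjusted p = 0.01), Cfi (1.07 ± 0.11, adjusted p = 0.00418), Vtn (1.05 ± 0.18, adjusted p = 0.0139) and F5 (1.01 ± 0.11, adjusted p = 0.00448). All 5 clotting factors were among the 18, by 0.71 to 1.01, and the fibrinogen chains, Plat and Pros1 were not. With median centring 3.47% of all genes were higher and 5.95% lower, and 12 members were higher and 0 lower. Without replicate 1 of the male day 5 arrays 1 member passed, without replicate 2 of them 0 did, and without replicate 1 or 2 of day 3 it was 9 or 5.

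The male day 5 and day 3 arrays lay on different slides, so slide and day cannot be told apart in that test. Female day 5 and male day 3 shared a slide, and this comparison, which differs in sex as well as in day, was added after the values were seen. It gave 19 members, 18 higher and 1 lower (Plat, −1.58 ± 0.38, adjusted p = 0.033), against 17.8% of all genes. Klkb1 differed by 1.08 ± 0.17 (adjusted p = 0.00885), F12 by 1.06 ± 0.19 (adjusted p = 0.0135) and Cfi by 1.04 ± 0.11 (adjusted p = 0.00333). Of the 19, 16 also passed between the male days. Both differences subtract the same day 3 arrays, so part of this overlap is built in, and the overlap over all genes was not counted.

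**Figure D5:**
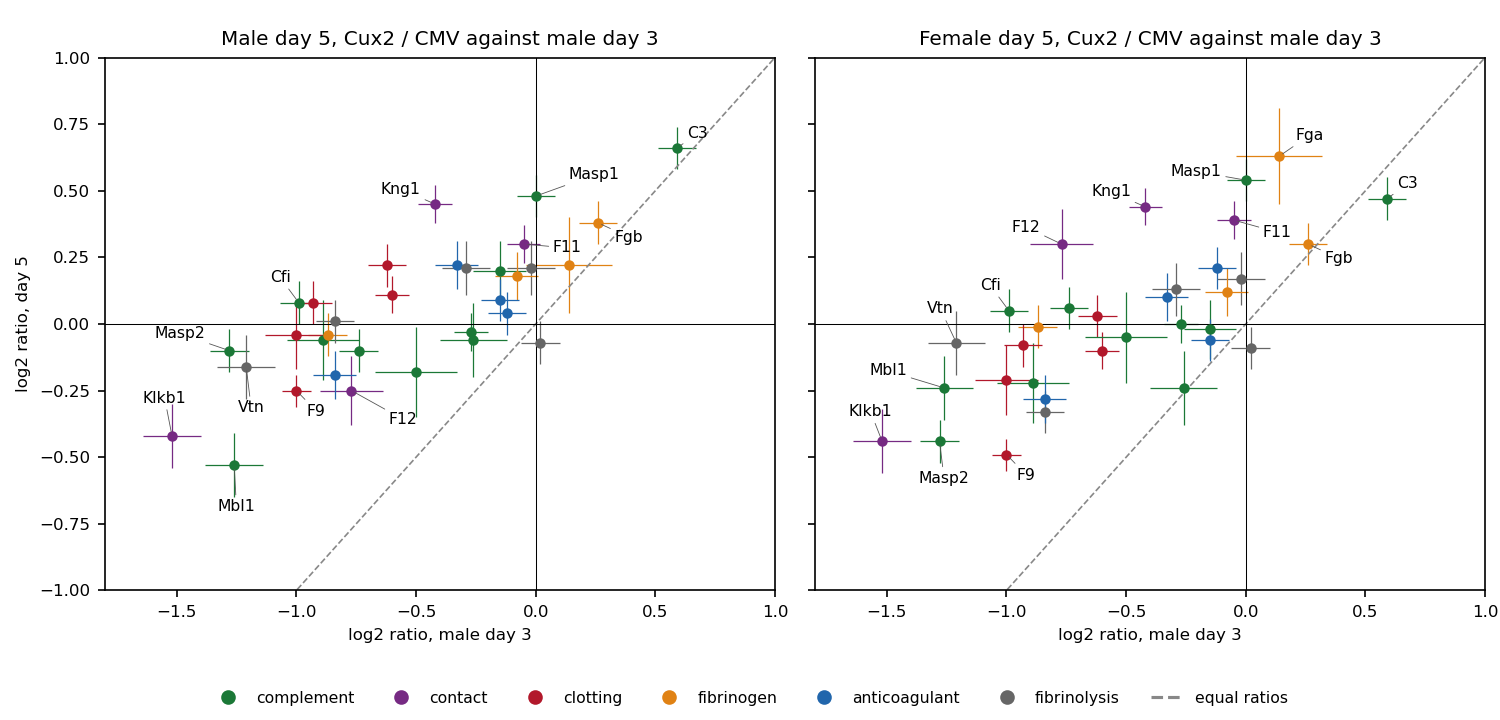
Log2 ratio at day 5 (y axis, males on the left and females on the right) against that in males at day 3 (x axis) for 33 of the genes, Plat being off the scale, with points coloured by role, bars for the standard error and a dashed line where both ratios are equal. Most points lie above the line, Klkb1, Mbl1, Masp2 and Vtn are farthest to the left, and Kng1 is below 0 at day 3 and above 0 at day 5.

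No member passed the test of the difference between female and male responses at day 5. Of the 34 members 4 had an unadjusted p under 0.05 in limma, and 0.207% of all genes passed (0.036% higher and 0.171% lower in females). The male and female arrays lay on different slides, so slide and sex cannot be told apart in that test. The intervals are wide enough to hold differences of some size: 0.10 to 1.0 for F12 (0.55, adjusted p = 0.349) and −0.60 to −0.08 for Plg (−0.34, adjusted p = 0.298). The same 6 members passed as higher in both sexes (C3, Masp1, F11, Fgb, Kng1 and Plat), and F9 passed as lower in both. Without the dye term 2 members were higher in males and 3 in females. The share of calls common to both sexes over all genes was not counted, so this overlap is not read as particular to the members. The 2 comparisons share no pool but share the dye orientations, and C3, Fgb and Kng1 are among the genes with a large dye gap. As a description over genes, which are not independent, the male and female ratios correlated at a Pearson r of 0.897 over the 34 members, 0.738 over the 33 without Plat, and 0.716 over all genes. Between the male days it was 0.926, 0.763 and 0.745.

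Other genes of the pathways were taken from a list of 56, of which 53 were measured. In males at day 3, 15 rose and 21 fell (median −0.04), against 23.7% of all genes higher and 20.3% lower. In males at day 5, 20 rose and 4 fell (median 0.23), against 13.9% and 4.95%. In females 19 rose and 4 fell (0.24), against 12.8% and 6.3%. Between the untreated sexes 6 were higher in males and 6 lower (−0.09), against 4.92% and 6.13%. Hrg, a histidine-rich glycoprotein of hepatocytes that binds plasminogen, fell most, at −2.70 and −3.04 at day 3 (−2.87 ± 0.15, adjusted p = 3.56e-05), −0.94 and −0.91 in day 5 males and −1.01 and −1.08 in females.

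Anxa2, a receptor for plasminogen and Plat, stood at 3.31 and 2.19 at day 3, 1.91 and 1.66 in day 5 males and 1.75 and 1.26 in females. F13a1, the catalytic subunit of factor XIII and a macrophage and platelet gene, stood at 2.25 and 2.58 at day 3 (2.41 ± 0.16, adjusted p = 7.15e-05), where F13b fell. Thbd, thrombomodulin, which presents Proc to thrombin, stood at 2.48 and 2.18 at day 3, and Procr, the receptor of Proc, at 1.5 and 1.48 in day 5 males and 2.35 and 1.58 in females. C1qb, a subunit of C1q made by macrophages, stood at 1.23 and 1.27 in day 5 males (1.25 ± 0.07, adjusted p = 0.000131). Of 12 platelet and megakaryocyte markers, 11 rose at day 3 and 7 in each sex at day 5, with medians of 0.78, 0.41 and 0.37, and of 12 neutrophil markers 11 rose in each. The shares of all genes higher were 23.7% at day 3 and 13.9% and 12.8% in males and females at day 5. What platelets and neutrophils add to the values of this paragraph was not tested. Of the 13 measured hepatocyte-defining genes, 6 fell and 1 rose at day 3, against 20.3% of all genes lower. A fall at day 3 was thus not limited to the cascade.

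Between the untreated sexes, the largest differences that passed the test among the listed genes included those of Colec10, a collectin of the lectin route, lower in males at −1.19 and −0.47 (−0.83 ± 0.13, adjusted p = 0.0114), and Serpine2, an inhibitor of thrombin, higher at 0.64 and 0.99 (0.81 ± 0.12, adjusted p = 0.00969). F2r, the thrombin receptor, was higher in males at 0.77 and 0.69 (0.73 ± 0.13, adjusted p = 0.0184), and C1s2, a protease of the C1 complex, at 0.88 and 0.42 (0.65 ± 0.12, adjusted p = 0.0186).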

How the data were processed

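Per the labels, Trizol-extracted RNA was amplified as aminoallyl RNA, which then took up either of a pair of Alexa dyes. Scanner files came from Agilent Feature Extraction 9.5.3.1 (untreated and male day 5 arrays, 1 slide) and 10.7.1.1 (the other slide), with array annotation on mm8, per the file headers. The intensity values, as deposited, are median spot and local background brightness, not normalized. The deposited log10 ratios, in the scanner files and the series matrix, are red over green after the software's own processing, per the file headers. Other deposited columns flag a spot with 0 or 1. The series text gives 11 untreated females and 3 dye-swapped experiments, but the labels of the samples, which were followed, have 10 and 4. The female arrays carry a stated purpose that names males.

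Ratios were turned to the first-named pool, from the dye labels. Background was corrected by normexp (offset 50) and ratios were normalized by loess in limma 3.58.1 (R 4.3.3, with the data.table package, version 1.17.8), with control and outlier spots at weight 0. Of 43379 gene spots, giving 41174 probes, 33335 were kept because both arrays of some comparison had them well above background in 1 channel or more. The brightest probe stood for each of 22225 genes. Names came from RefSeq by accession (24375 probes), symbol (6301) or synonym (2426), and 8072 kept the file's name. One limma model held 4 comparisons and a dye term (3 residual degrees of freedom, prior 3.62), with 2-sided moderated tests and Benjamini-Hochberg adjustment over all genes. The fit was tested on simulated data. The dye term equals a block on the replicate number, since the number and the dye orientation coincide. The 6 correlations of same-numbered arrays' deviations ran from −0.0945 to 0.296. They hold dye and number together, so they cannot show whether the numbers pair anything beyond the dye. Arrays are replicates of a comparison only by label, and their number limits the precision.

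Members, lists, motifs and tests were chosen with earlier results of these data known. Members that passed in a comparison or difference were named with each array's ratio, the rest by range and count. Genes outside the set were named from fixed lists only, up to 5 of the largest changes for a list and comparison, except Cux2 and the cell-type lists. Fga, Fgg, Mbl2, Pros1, Cfb and Serping1 are named although they did not pass there. The alternatives changed the background correction, normalization, filter, choice of probe, variance trend, dye term, slides used or arrays used, 1 at a time.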

Additional observations from a re-analysis of the deposited data

Results flagged for a closer look

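For 18 members the response of males at day 5 differed from that at day 3 by the test of the difference itself, and in each the day 5 ratio was the higher. In complement the differences, in log2, were 0.83 ± 0.21 for C4b, 1.07 ± 0.11 for Cfi, 0.64 ± 0.12 for C4bp, 0.72 ± 0.17 for Mbl1, 0.48 ± 0.11 for Masp1 and 1.18 ± 0.11 for Masp2. Among clotting factors they were 0.71 ± 0.10 for F2, 1.01 ± 0.11 for F5, 0.95 ± 0.19 for F7, 0.75 ± 0.09 for F9 and 0.84 ± 0.11 for F10. For the remaining genes they were 0.83 ± 0.12 for F13b, 0.54 ± 0.13 for Serpinc1, 0.64 ± 0.13 for Proc, 0.85 ± 0.11 for Plg, 0.87 ± 0.10 for Kng1, 1.11 ± 0.17 for Klkb1 and 1.05 ± 0.18 for Vtn. The adjusted p ran from 0.00324 for Masp2 to 0.0461 for C4b. Kng1 was lower than the control virus at day 3 and higher at day 5, and Masp1 passed the test at day 5 and not at day 3. The arrays of the 2 days were on different slides, which cannot be told apart from the day.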

How the results depend on the processing

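Of 66 gene calls, 16 held under each of the 19 alternatives that could be run for that gene, and none changed direction; 933 of 1170 values stayed on their side of the threshold and 237 no longer passed. The day 3 count of 22 stayed between 17 and 24 under all settings. With the software's log ratios the counts were 0 in untreated mice (10 at an unadjusted p under 0.05), 4 in males at day 5, 5 in females and 6 between the male days, of which 1 was lower. In that order, the shares of all genes higher and lower were 2.34% and 2.65%, 8.94% and 4.08%, 7.4% and 4.28%, and 2.01% and 0.909%. Without the dye term, which is also the replicate block, the member counts were 3, 5 and 6 in untreated mice, males and females at day 5, and 18 at day 3. The block moved no other count by over 1.5 times. Without background subtraction 5 passed in untreated mice, and with median centring 5 in males at day 5. Leaving out 1 array gave 1 to 8 in untreated mice, 1 to 9 in males and 2 to 14 in females at day 5, 17 to 24 at day 3, 0 to 1 between the sexes at day 5 and 0 to 20 between the male days. Where leaving out an array lowered a count, the share of all genes that passed fell too. The cause of these changes was not tested. At 2 arrays a comparison, the median standard error was 0.0784 for a ratio and 0.111 for a difference, and Plau was too dim to measure well.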
